A study of Rattus norvegicus with 48 samples.

Results

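The nucleolar factors described here are 58 genes whose proteins build ribosomes in the nucleolus. They were chosen by measured values: several of them led the comparison of ischemic postconditioning with ischemia and reperfusion in these same livers. A gene was taken where a probe set of the array carried its symbol, or an alias, as the only symbol, and the probe set of highest mean over all arrays stood for the gene. By this rule 53 of the 58 genes were found among the 14506 genes measured, on 61 probe sets. Utp6, Rrp12, Pes1, Nop2 and Rrp1b were not matched and were not analysed here. All 53 lay above the dimmest 33.3% of genes, so none was lost to a filter on low values.

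Ribosomes are assembled in the nucleolus around precursor ribosomal RNA that RNA polymerase I transcribes. Small nucleolar ribonucleoproteins modify that RNA: box C/D particles guide ribose methylation, and box H/ACA particles guide pseudouridylation. The small subunit processome and the large subunit assembly factors then fold, cut and dress the precursor, with helicases and GTPases among them, while abundant proteins such as nucleolin and nucleophosmin hold the nucleolus together. In many cell types the genes of this machinery are transcribed together, the transcription factor Myc being their best known activator, and in regenerating liver they are known to be induced. The 53 measured genes comprised 3 box C/D proteins, 4 box H/ACA proteins, 16 small subunit factors, 22 large subunit factors, 2 subunits of RNA polymerase I and 6 nucleolar proteins with several roles.

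Liver RNA of 48 male Wistar rats of 300 to 350 g was measured, 1 Affymetrix array per rat, with biopsies taken from the right lobe under anaesthesia; the age of the rats is not given in the sources used here. The sham group (n = 8) had the laparotomy without ischemia. In the ischemia and reperfusion group (IRI, n = 10) the whole liver was ischemic for 30 min and reperfused for 30 min before sampling. Preconditioned rats (IPC, n = 10) were given 10 min of ischemia, then 10 min of flow, ahead of the same insult, and postconditioned rats (IPO, n = 10) began reperfusion with 3 cycles, each letting blood in for 30 sec and stopping it for 30 sec. Both manoeuvres were applied in the IPC+IPO rats (n = 10). The rats are separate animals per the labels, no drug or genetic change was named beside the anaesthetics that all groups shared, and no batch was named.

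All levels are log2 expression values per probe set as deposited, so a difference of 1 is a 2-fold change, and values of different genes are not set against each other. The arrays differed in spread, the standard deviation of an array's log2 values over all genes, from 1.498 to 1.97, while array medians stayed between 5.78 and 5.92. Sham arrays had a mean spread of 1.72 and IRI arrays one of 1.77, IPC and IPC+IPO arrays followed with 1.85 and 1.86, and IPO arrays were highest with 1.91. The lowest arrays were those of IPC+IPO animal 38 and IRI animal 7. These 2 also had the lowest mean correlation with the other arrays, 0.933 and 0.888, the next being IRI animal 9 at 0.955. Because spread moved with the groups, the count of called genes in each comparison is given as deposited and again with spread as a covariate. Differences of single genes are as deposited unless the covariate is named, and not every gene has its covariate value given here. The 10 hepatocyte markers averaged between 11.51 and 12.42 over all animals, and the albumin gene Alb lay between 12.80 and 13.39, so the defining markers of the labelled tissue were present. In whole tissue, fewer cells of a type and less RNA per cell cannot be told apart.

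The promoters of 47 of the 53 genes were found among the RefSeq promoters of the rat assembly GRCr8, each spanning 250 bases before to 50 after the annotated start. Wdr43, Bop1, Rrs1, Mak16, Gnl2 and Pinx1 had no entry. The letters CACGTG, an E-box of the kind Myc binds, were present in 15 of the 47 promoters (31.91%), against 7.882% of the 11951 promoters of measured genes and 6.65% of all 27457 promoters. CCGGAAG on either strand, the core of sites for ETS factors, was present in 25 of the 47 (53.19%), against 12.96% and 9.218%. The GC box GGGCGG, likewise on either strand, was in 57.45% of the 47 promoters and 50.16% of those of measured genes, and CCAAT in 21.28% and 38.35%. The median GC content was 55.67% in the 47 promoters and 58% in those of measured genes. CACGTG and CCGGAAG each contain the letter pair CG. Its median count per promoter was 22 in the 47, 16 in measured genes and 7 in all promoters. The part of base composition in the motif shares was not tested. The other ribosome biogenesis genes described further on held CACGTG in 24.14% and CCGGAAG in 41.38% of 87 promoters. These are matches of letters, not binding sites. CACGTG and CCGGAAG do not overlap each other in the promoters printed here.

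Promoters of 4 genes are printed for the genes on which the values below turn, chosen after the motif counts and values were seen, with capitals marking CACGTG and CCGGAAG or its reverse CTTCCGG and positions counted from the start. Rpf2, which with Rrs1 places a small ribosomal RNA particle into the growing large subunit, lies on the minus strand at chr20:45205934-45206233 and holds CCGGAAG at -26 and CACGTG at -10. Utp4, a subunit of the processome that contacts the precursor early, lies on the plus strand at chr19:51701991-51702290 with CTTCCGG at -83 and -59 and CACGTG at -25. Rbm34, an RNA-binding protein of large subunit assembly, lies on the minus strand at chr19:71853897-71854196 and holds CCGGAAG at -31 and no CACGTG. Noc4l, the small subunit factor that partners Nop14, lies on the plus strand at chr12:51675602-51675901, where neither set of letters occurs.
Rpf2: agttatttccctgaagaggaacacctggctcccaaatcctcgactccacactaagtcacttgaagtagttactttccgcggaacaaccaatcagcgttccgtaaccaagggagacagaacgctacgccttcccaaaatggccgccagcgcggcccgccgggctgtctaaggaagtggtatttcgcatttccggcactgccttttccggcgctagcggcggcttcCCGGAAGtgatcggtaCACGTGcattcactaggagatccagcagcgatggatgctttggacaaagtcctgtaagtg
Utp4: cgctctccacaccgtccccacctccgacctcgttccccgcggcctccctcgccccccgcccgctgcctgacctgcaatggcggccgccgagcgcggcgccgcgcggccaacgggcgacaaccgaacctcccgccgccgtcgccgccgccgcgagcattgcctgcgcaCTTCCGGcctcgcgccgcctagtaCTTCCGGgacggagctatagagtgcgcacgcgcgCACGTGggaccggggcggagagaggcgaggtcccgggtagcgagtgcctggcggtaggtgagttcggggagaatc
Rbm34: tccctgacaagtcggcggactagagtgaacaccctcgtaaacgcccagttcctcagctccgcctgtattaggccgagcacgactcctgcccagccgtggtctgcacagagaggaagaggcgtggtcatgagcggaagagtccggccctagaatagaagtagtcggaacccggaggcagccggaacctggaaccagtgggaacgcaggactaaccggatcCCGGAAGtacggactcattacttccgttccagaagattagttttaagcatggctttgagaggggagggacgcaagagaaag
Noc4l: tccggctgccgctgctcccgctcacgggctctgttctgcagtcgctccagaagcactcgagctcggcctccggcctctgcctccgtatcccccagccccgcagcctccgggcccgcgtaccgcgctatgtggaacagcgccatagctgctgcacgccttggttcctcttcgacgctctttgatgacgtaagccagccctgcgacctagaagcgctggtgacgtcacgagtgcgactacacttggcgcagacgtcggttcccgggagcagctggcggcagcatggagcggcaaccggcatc

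Over all groups the 53 genes were highest in IPO livers and lowest in IRI and sham livers. Averaged over the genes, IPO animals deviated from each gene's mean by 0.221 ± 0.157 (SD, n = 10) and IPC animals by 0.069 ± 0.161 (SD, n = 10). The mean deviation of IPC+IPO animals was 0.024 ± 0.260 (SD, n = 10), that of sham animals -0.147 ± 0.224 (SD, n = 8) and that of IRI animals -0.196 ± 0.321 (SD, n = 10). The groups overlapped. Sham animal 43 stood at 0.268 and IRI animal 1 at 0.289, each the highest of its group, whereas IRI animal 7 stood at -0.929, IPC+IPO animal 38 at -0.481 and IPO animal 30 at -0.058, each the lowest. The same 5 animals held these ends of array spread within their groups. Counted by gene, a median of 49 of the 53 lay above their own mean in an IPO animal, against 35.5 in IPC, 37.5 in IPC+IPO, 18.5 in IRI and 11.5 in sham.

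**Figure D1:**
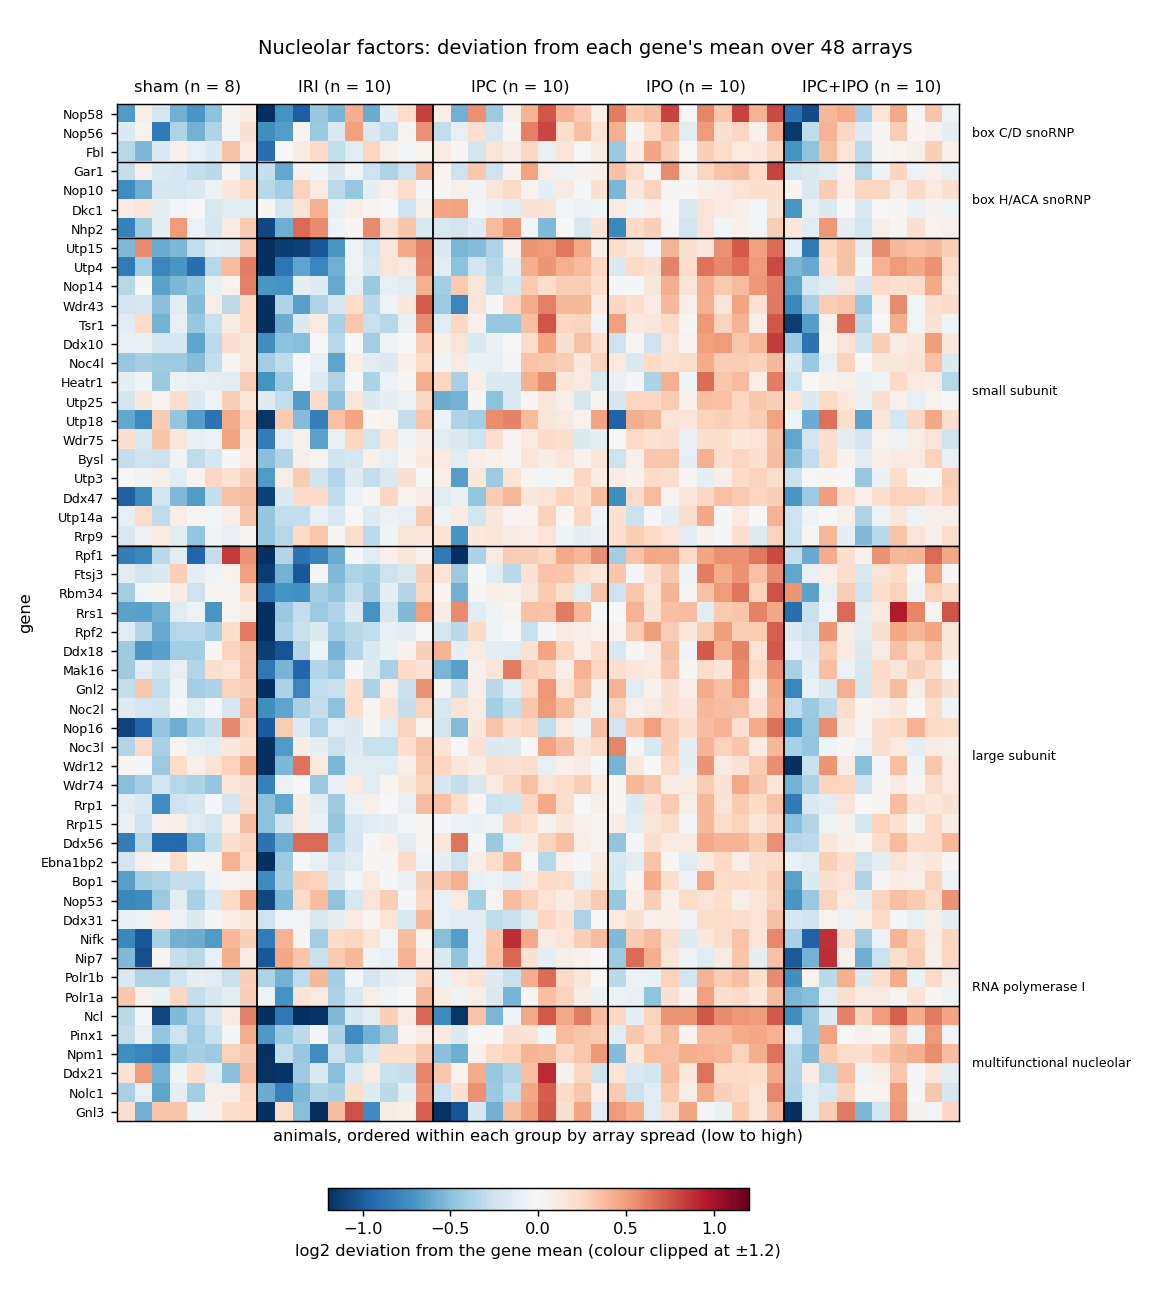
Each row is 1 of the 53 genes, grouped by role, and each column 1 animal, grouped by treatment and ordered within a group by array spread; colour is the log2 deviation from the gene's mean over 48 arrays, clipped at 1.2 either way. Most genes are red in the IPO columns and in the high-spread columns at the right of each group, and IRI animal 7 and IPC+IPO animal 38, the first columns of their groups, are mostly blue.

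The comparison of IPO with IRI is the one by which the genes were proposed, so its values are a description. Of the 53 genes, 52 were higher in IPO, with a median difference of 0.372 against -0.040 for all genes. With the dimmest genes left out, which removed none of the 53, the median of all remaining genes was 0.140. limma called 32 of the 53 at an adjusted p under 0.05, all higher, while it called 12.4% of all genes higher and 22.8% in either direction. By role these were 1 of 3 box C/D proteins, 1 of 4 box H/ACA proteins, 11 of 16 small subunit factors, 14 of 22 large subunit factors, 0 of 2 polymerase subunits and 5 of 6 proteins with several roles. Nhp2, a box H/ACA protein, was the only member below 0, at -0.04 ± 0.16 (SE). Rbm34, Ftsj3 and Pinx1 held ranks 1, 2 and 3 of all genes by p value. With array spread as a covariate 0 of the 53 were called, against 0.0138% of all genes, all of these lower. At an unadjusted p under 0.05 were 20 of the 53, all higher, against 3.96% of all genes higher. The median was then 0.145, with 46 genes above 0. Without IRI animal 7, 14 genes were called, the share of all genes in that fit not being given here.

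Nop58, a core protein of box C/D particles, ran from 5.12 through a median of 6.22 to 7.54 in IRI and from 6.73 through 7.23 to 7.54 in IPO, a difference of 0.86 ± 0.21 (SE, 1.82-fold). No IPO animal lay above the highest IRI animal, animal 1, and the IRI animals spread most widely. Its medians were 6.38 in sham, 6.93 in IPC and 6.81 in IPC+IPO. Nop56, its partner, and the methyltransferase gene Fbl differed by 0.37 and 0.21 between IPO and IRI. Among box H/ACA genes, Gar1 stood apart: it ran from 5.81 through 6.19 to 6.82 in IRI and from 6.44 through 6.72 to 7.23 in IPO, with 2 IPO animals above every IRI animal. The difference was 0.48 ± 0.10 (SE) and 0.41 ± 0.10 with the covariate. Dkc1, the pseudouridine synthase of these particles, differed by 0.02 ± 0.09 and Nop10 by 0.16 ± 0.10.

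Of the small subunit factors, Utp4 ran from 5.58 through 6.40 to 7.36 in IRI and from 6.60 through 7.32 to 7.57 in IPO, and 4 IPO animals exceeded every IRI animal. Its difference of 0.77 ± 0.19 (SE, 1.71-fold) became 0.28 ± 0.10 with the covariate. Utp15, of the same early subcomplex, differed by 0.78 ± 0.20, or 0.39 ± 0.17 with the covariate. Its IRI animals ran from 4.21 to 6.04 and its IPO animals from 5.40 to 6.17, with 2 IPO animals above the IRI range. Noc4l was at a median of 6.45 in IRI and 6.82 in IPO, 6 IPO animals above every IRI animal. Across the 16 factors the differences between IPO and IRI ran from 0.12 for Rrp9 to 0.78 for Utp15, and each was above 0.

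Large subunit factors included the gene that separated IPO from IRI completely. Rpf2 ran from 5.15 through 6.14 to 6.42 in IRI and from 6.47 through 6.72 to 7.14 in IPO, a difference of 0.67 ± 0.13 (SE, 1.59-fold). Every IPO animal lay above every IRI animal, which was true of Rpf2 alone among the 53 genes and of 0.0138% of all genes. Its medians were 6.08 in sham, 6.41 in IPC and 6.58 in IPC+IPO. Rbm34 ran from 4.95 through 5.41 to 6.08 in IRI and from 5.57 through 6.15 to 6.59 in IPO, with 7 IPO animals above every IRI animal. The difference was 0.73 ± 0.13, and 0.57 ± 0.12 with the covariate, the largest of the 53 there. Ftsj3, a methyltransferase of precursor RNA, had medians of 5.97 in IRI and 6.70 in IPO and differed by 0.75 ± 0.13, or 0.50 ± 0.11 with the covariate. Rpf1 and Rrs1 differed by 0.85 ± 0.23 and 0.72 ± 0.18, and 9 and 1 IPO animals respectively exceeded every IRI animal. IRI animal 7 was lowest of its group in Rpf1, Rpf2, Rbm34, Ftsj3 and Rrs1.

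Polr1b, a core subunit of RNA polymerase I, differed by 0.28 ± 0.13 and Polr1a, the largest subunit, by 0.16, neither called. Of the proteins with several roles, the nucleolin gene Ncl had the largest difference of the 53: it ran from 6.73 through 8.65 to 9.72 in IRI and from 8.90 through 9.55 to 9.77 in IPO. IRI animals 7 and 1 held both ends of the IRI range, and only 2 IPO animals lay above it. The difference of 0.997 ± 0.25 (SE, 2-fold) became 0.40 ± 0.17 with the covariate. Pinx1, a nucleolar protein also known to inhibit telomerase, ran from 5.24 through 5.57 to 6.08 in IRI and from 5.85 through 6.35 to 6.45 in IPO, with 8 IPO animals above every IRI animal. Its difference was 0.64 ± 0.11, and 0.44 ± 0.10 with the covariate.

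**Figure D2:**
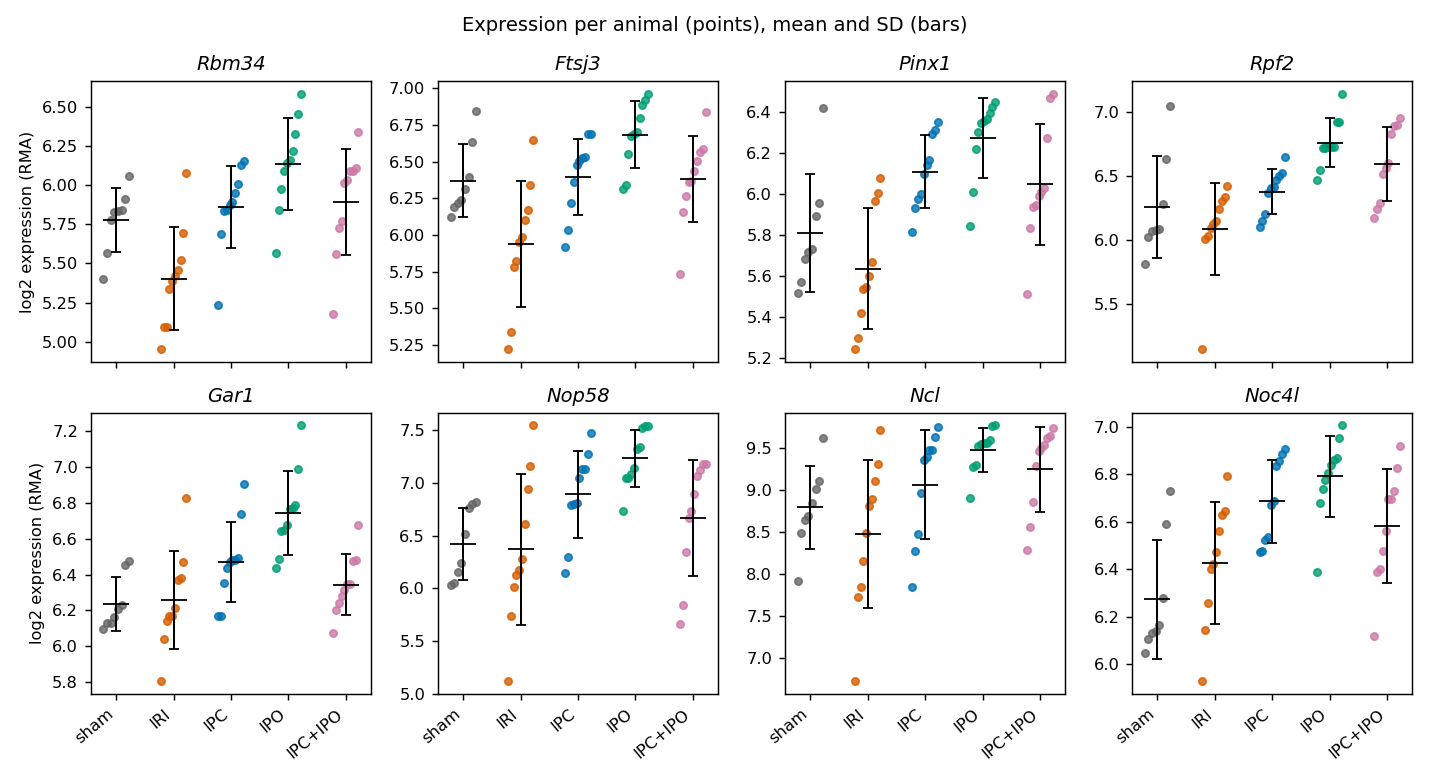
Log2 expression of 8 of the genes in each animal (points, sorted within a group) with the group mean and SD (bars), for sham (n = 8) and IRI, IPC, IPO and IPC+IPO (n = 10 each). IPO is the highest group in each panel, Rpf2 alone has no overlap between IPO and IRI, and in Gar1 the IPC+IPO animals lie between 6.08 and 6.68 and the sham animals between 6.10 and 6.47.

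Preconditioned livers were compared with sham. As deposited, this difference used none of the arrays by which the genes were proposed, which entered only the shared variance. With the spread covariate those arrays entered through the slope, which was fitted over all 5 groups. The comparison includes the effect of ischemia and reperfusion itself, which sham lacked. Noc4l rose by 0.41 ± 0.11 (SE, 1.33-fold, limma adjusted p = 0.0182): it ran from 6.05 through a median of 6.15 to 6.73 in sham and from 6.47 through 6.68 to 6.91 in IPC. All IPC animals lay above the sham median, and 4 lay above sham animal 43, the highest sham animal. Ddx56, a nucleolar helicase of large subunit assembly, rose by 0.53 ± 0.17 (SE, 1.44-fold, limma adjusted p = 0.0495), from a range of 5.71 through 6.21 to 6.91 in sham to one of 6.20 through 6.73 to 7.29 in IPC. Here 3 IPC animals exceeded every sham animal. Rrs1 came next at 0.55 ± 0.19 (SE, 1.47-fold, limma adjusted p = 0.0655) and did not pass; its sham animals ran from 6.22 to 7.02 and its IPC animals from 6.80 to 7.54.

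These 2 of 53 genes, both higher, were all that passed in IPC against sham, no larger a share than over all genes, of which 6.58% passed and 5.6% were higher. At an unadjusted p under 0.05, 22 were higher, against 16.3% of all genes, and 1 was lower, Utp25, a small subunit factor, at -0.22 ± 0.11. Of the 53, 46 were above 0, with a median of 0.234 against 0.009 for all genes. With the dimmest genes left out, which removed none of the 53, the median of all remaining genes was 0.103. The 53 also moved together within groups, with a mean pairwise correlation of 0.474, so these 46 signs are not independent. That correlation was 0.354 in the 104 other ribosome biogenesis genes described further on and 0.010 over all genes. With array spread in the model it was 0.186 in the 53, 0.076 in the 104 and 0.016 over all genes. By role, 0 of 3 box C/D proteins, 0 of 4 box H/ACA proteins, 1 of 16 small subunit factors, 1 of 22 large subunit factors, 0 of 2 polymerase subunits and 0 of 6 others passed. Nop58 stood at 0.47 ± 0.22, Nop56 at 0.44, Utp4 at 0.45 ± 0.20 and Npm1, the nucleophosmin gene, at 0.52 ± 0.19.

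Array spread moved with this comparison. With it as a covariate 0 of the 53 were called, 1.9% of all genes were, and the median was 0.00037, with 27 genes above 0. At an unadjusted p under 0.05 there were then 1 higher and 6 lower, against 18% of all genes in either direction. Noc4l was at 0.24 ± 0.08 (SE, adjusted p = 0.121) and Ddx56 at 0.29 ± 0.15 (adjusted p = 0.303). Leaving out 1 array at a time moved this count in 39 of 48 fits: Ddx56 lost its call in 37 and Noc4l in 2, those without sham animal 45 or 46. A fit of the sham and IPC arrays alone also called 2 genes, Noc4l and Rrs1, with Ddx56 at a limma adjusted p of 0.0639. It called 5.41% of all genes. The count was 0 without sham animal 45 or 46, 15 without sham animal 43, 10 without sham animal 48, 6 without IRI animal 7 and 4 without IPC+IPO animal 38, the latter 2 being arrays of groups that enter only the shared variance. The share of all genes called without each of these arrays is not given here, so the counts describe the members only.

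**Figure D3:**
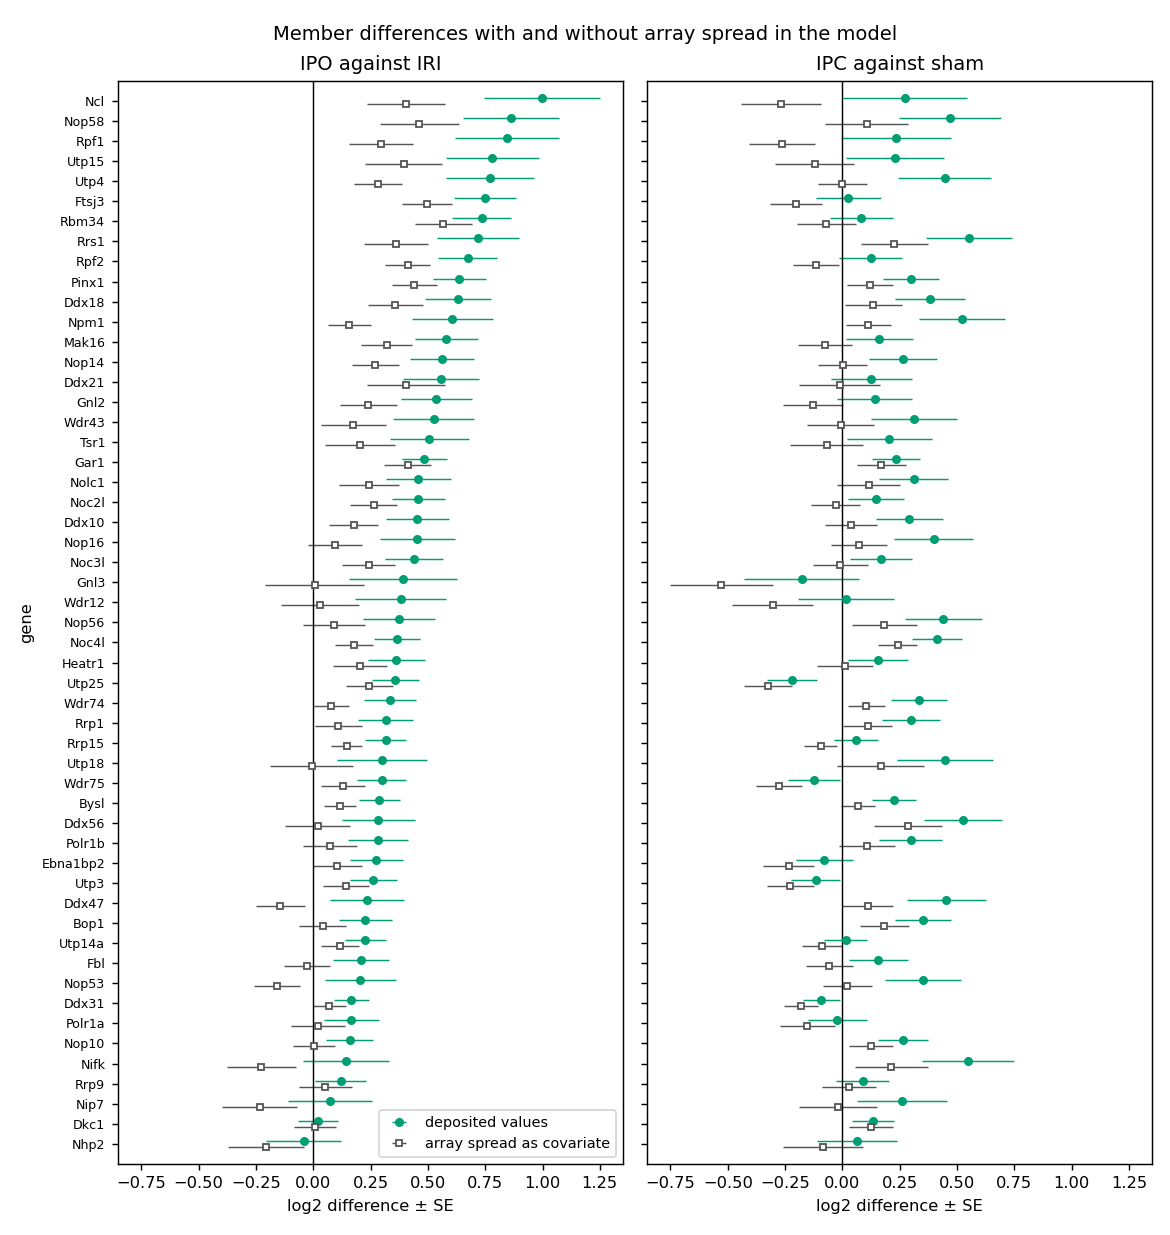
Log2 difference ± SE of each of the 53 genes in IPO against IRI (left) and IPC against sham (right), from the deposited values (filled circles) and with array spread as a covariate (open squares); genes are ordered by the left panel. With the covariate the median falls from 0.372 to 0.145 on the left and from 0.234 to 0.00037 on the right.

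In IPC+IPO livers against sham, 0 of the 53 passed with limma, while 3.62% of all genes did. Here too the arrays used to propose the genes entered the deposited fit only through the shared variance. At an unadjusted p under 0.05, 11 were higher and 0 lower, against 15.9% of all genes higher. Nop10, a small box H/ACA protein, had the smallest adjusted p of 0.0589, at 0.34 ± 0.11 (SE, 1.27-fold). It ran from 9.52 through 10.08 to 10.51 in sham and from 10.10 through 10.43 to 10.58 in IPC+IPO, with 4 IPC+IPO animals above every sham animal. Ddx56 stood at 0.53 ± 0.17 (limma adjusted p = 0.063) and Npm1 at 0.57 ± 0.19 (limma adjusted p = 0.065). Npm1 ran from 8.01 through 8.40 to 9.18 in sham and from 8.32 through 9.15 to 9.41 in IPC+IPO, with 4 IPC+IPO animals above every sham animal. The median over the 53 was 0.152, with 41 above 0, against 0.014 for all genes. With the dimmest genes left out, which removed none of the 53, the median of all remaining genes was 0.116.

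With the spread covariate 0 of the 53 and 0.234% of all genes were called in IPC+IPO against sham, and the median was -0.073; 6 genes were then lower at an unadjusted p under 0.05, against 5.34% of all genes. Leaving out sham animal 43 gave 11 called genes, IPC+IPO animal 37 or 38 gave 8, sham animal 48 gave 7, IRI animal 7 gave 3 and IPO animal 30 gave 1. The share of all genes called in these fits is not given here.

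IPC+IPO and IPC livers differed by design only in the postconditioning cycles. Their deposited difference again used none of the arrays by which the genes were proposed. limma called 0 of the 53 and 0% of all genes. At an unadjusted p under 0.05 were 2 of the 53, against 1.62% of all genes: Dkc1 at -0.21 ± 0.09 and Utp25 at 0.22 ± 0.10. Dkc1 ran from 7.32 through 7.42 to 7.93 in IPC and from 6.75 through 7.39 to 7.50 in IPC+IPO, where animal 38 was lowest and the next animal stood at 7.28. Utp25 ran from 5.31 through 5.83 to 6.04 in IPC and from 5.74 through 5.95 to 6.14 in IPC+IPO, so its lower tail was in IPC. Rpf2 followed at 0.22 ± 0.13. In all, 37 of the 53 were below 0, with a median of -0.069, and -0.080 with the covariate, under which 0 of the 53 and 0% of all genes were called. Without the 14 arrays of lowest spread, an alternative chosen after seeing the data, the median turned to 0.032, with 33 genes above 0.

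The remaining comparisons share the IRI or IPO arrays with the one that proposed the genes, and their values are given as a description. In IRI against sham limma called 0 of the 53 and 0.241% of all genes; 7 had an unadjusted p under 0.05, 2 higher and 5 lower, against 11.5% of all genes. Ftsj3 stood at -0.43 ± 0.14 and Rbm34 at -0.37 ± 0.14, whereas Ddx56 stood at 0.35 ± 0.17 and Nifk, a large subunit factor, at 0.44. The sham animals of Ftsj3 ran from 6.12 to 6.85 and the IRI animals from 5.22 to 6.65, with 7 IRI animals below every sham animal. With the spread covariate 4 genes were called lower, against 2.92% of all genes: Ftsj3 at -0.51 ± 0.11, Rbm34 at -0.43 ± 0.12, Ebna1bp2 at -0.34 ± 0.10 and the small subunit factor Wdr75 at -0.31 ± 0.09. As deposited, the Ebna1bp2 probe set used stood at -0.29 and the other probe set of this gene at 0.04.

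Against IRI, IPC livers had 0 of the 53 called (0.0276% of all genes), with 24 higher at an unadjusted p under 0.05 (10% of all genes), and a median of 0.260. IPC+IPO livers had 0 called (0% of all genes), 16 higher at an unadjusted p under 0.05 (11.5% of all genes) and a median of 0.168. With the spread covariate 0 of the 53 were called in either comparison (0% and 0.062% of all genes), and the medians were 0.120 in IPC and 0.027 in IPC+IPO. Pinx1 differed from IRI by 0.47 ± 0.11 in IPC and 0.41 ± 0.11 in IPC+IPO, and Rpf2 by 0.29 ± 0.13 and 0.51 ± 0.13. Against sham, IPO livers had 21 genes called, all higher, against 15.4% of all genes called higher and 23.2% in either direction, with a median of 0.356. All of these calls were lost with the spread covariate, 0 of the 53 and 0% of all genes being called, and the median was 0.039. Among the 21, Noc4l stood at 0.52 ± 0.11, with 8 IPO animals above every sham animal, Gar1 at 0.51 ± 0.11, with 9, and Nop58 at 0.81 ± 0.22, with 9; with the covariate they stood at 0.27 ± 0.09, 0.41 ± 0.11 and 0.28 ± 0.19. These comparisons use the same IRI or sham arrays as their control and are not independent of each other.

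IPO against IPC gave 0 called (0% of all genes), 6 higher at an unadjusted p under 0.05 (2.09% of all genes) and a median of 0.129. IPC+IPO against IPO gave 0 called (0% of all genes), 12 lower at an unadjusted p under 0.05 (1.6% of all genes) and a median of -0.200. Adding the spread covariate left 0 called in both (0% of all genes), with medians of 0.037 for IPO against IPC and -0.111 for IPC+IPO against IPO. The interaction asks whether adding postconditioning to preconditioning differs from adding it to ischemia alone. No member passed (limma, 0 of 53, and 0% of all genes), 34 were lower at an unadjusted p under 0.05 (10.5% of all genes), and the median was -0.448. Nop58 was at -1.08 ± 0.30, Gar1 at -0.61 ± 0.14, Pinx1 at -0.70 ± 0.16 and Ftsj3 at -0.76 ± 0.19, and the smallest adjusted p was 0.166. With the spread covariate 0 of the 53 passed (0% of all genes) and the median was -0.226.

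**Figure D4:**
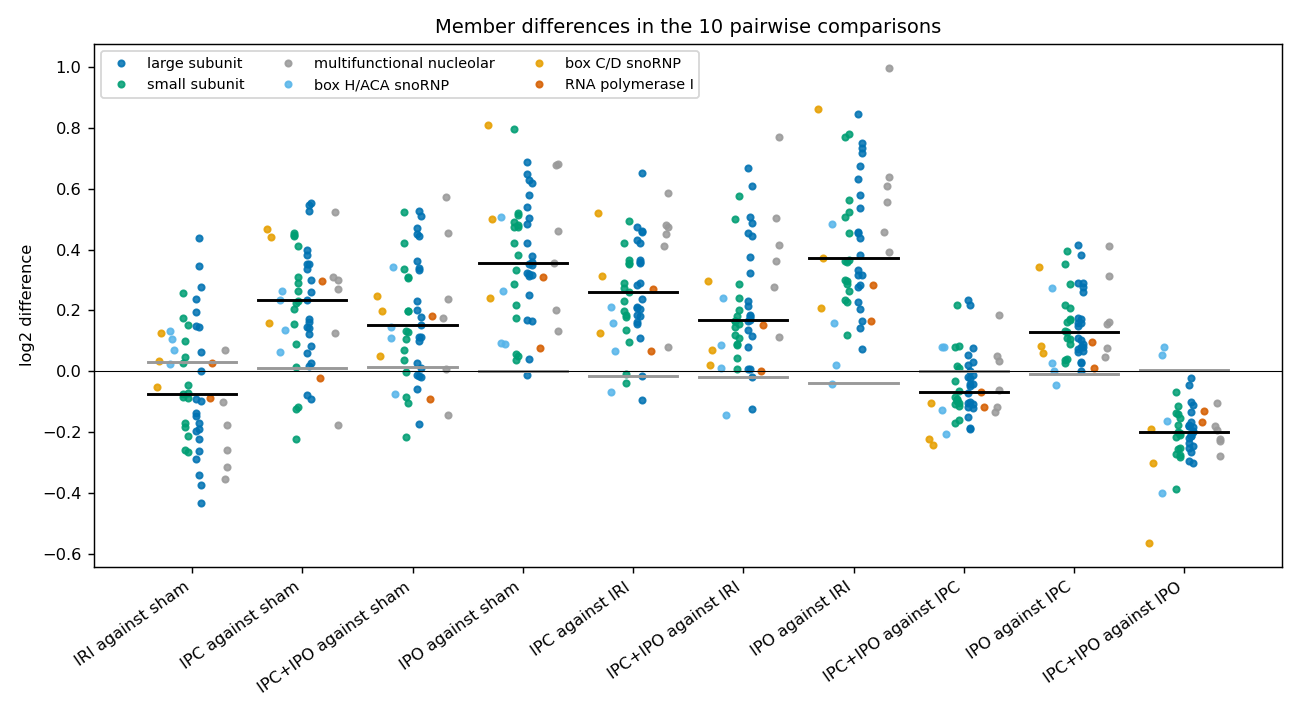
Log2 difference of each of the 53 genes (points, coloured by role) in the 10 pairwise comparisons of the groups, with the median of the 53 (black bar) and of all 14506 genes (grey bar). The black bars run from -0.200 in IPC+IPO against IPO to 0.372 in IPO against IRI, and the grey bars stay near 0. The grey bars include the dimmest genes, among which none of the 53 lay.

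All 53 genes rose with array spread within the fit of the 5 groups. The median slope was 0.180 on the log2 scale per 0.1 of spread, from 0.008 in Dkc1 to 0.425 in Ncl, and all 53 slopes were above 0. Over all genes the median slope was 0.003 and 50.3% were above 0. All genes include the dimmest, among which none of the 53 lay, and slopes for genes of like level are not given here. The 104 other ribosome biogenesis genes described further on had a median slope of 0.179, with 97 above 0, so the rise was not particular to the 53. Rpf1, Utp4, Npm1 and Nop58 had slopes of 0.394, 0.351, 0.322 and 0.286. Rrs1 and Rpf2 had slopes of 0.256 and 0.187, and Gar1 one of 0.051. Spread is computed from these same values and differed between the groups. The covariate values therefore do not divide a group difference into a part of spread and a part of treatment. Whether the spread had a technical or a biological source was not tested.

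**Figure D5:**
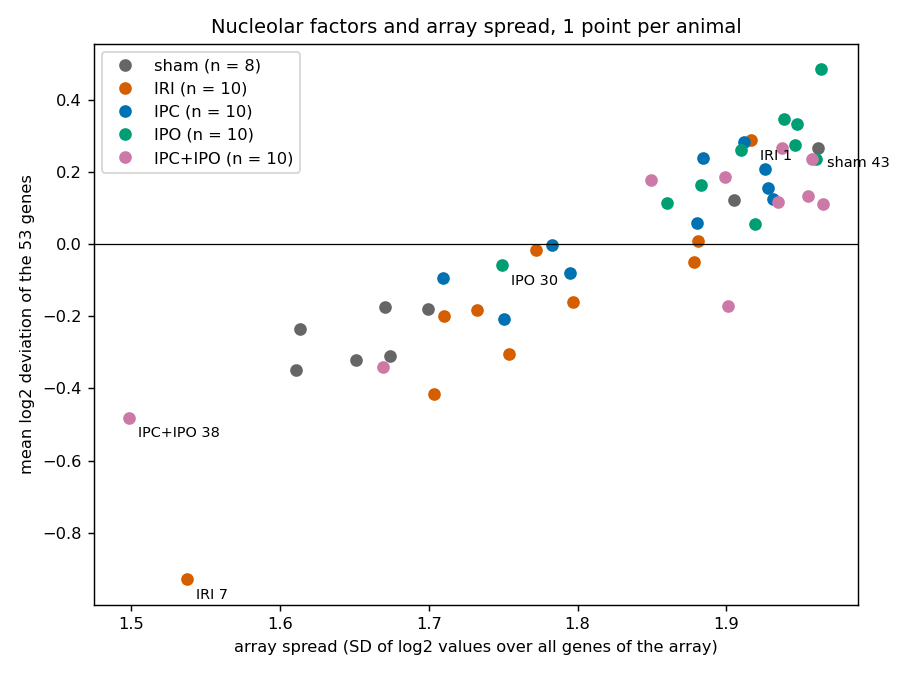
Mean log2 deviation of the 53 genes from their own means (vertical axis) against array spread, the SD of log2 values over all genes of the array (horizontal axis), with 1 point per animal coloured by group. The points rise from IRI animal 7 and IPC+IPO animal 38 at the lower left to IPO animal 27 at 0.484, and sham animal 43 and IRI animal 1 lie among the IPO animals.

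Other genes of ribosome biogenesis, a list of 124 that excludes the 58, had 104 measured members. In IPC against sham 9 of them rose and 0 fell, with a median of 0.185, beside the 6.58% of all genes called and 5.6% called higher. With the spread covariate Myc was called higher and Rpap3 and Exosc9, an exosome subunit, lower, and the median was -0.012. In that fit 1.9% of all genes were called. Myc had the largest difference, 1.64 ± 0.31 (SE, 3.13-fold, limma adjusted p = 0.0017). It ran from 5.63 through 5.84 to 6.33 in sham and from 6.14 through 7.74 to 8.78 in IPC, with IPC animals overlapping sham only at the lower end of their range, and with the covariate it stood at 1.36 ± 0.31 (adjusted p = 0.012). The others were Eif6, an anti-association factor of the large subunit, at 0.48 ± 0.12 (limma adjusted p = 0.0163), the large subunit factors Wdr18 and Ddx24, and the small subunit factors Aatf, Imp3, Tbl3, Rrp7a and Imp4. None of these 8 was called with the covariate.

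In IPC+IPO against sham 3 of the 104 rose and 1 fell, with a median of 0.165, a share close to the 3.62% of all genes. None of these 4 was called with the spread covariate, under which the median was -0.049 and 0.234% of all genes were called. There 1 other gene of the 104, Rpap3, a chaperone cofactor of snoRNP assembly, was called lower. Imp4, a processome protein, rose by 0.55 ± 0.16 (SE, limma adjusted p = 0.0382), as did Aatf by 0.62 ± 0.18 and Eif6 by 0.42 ± 0.12. Taf1c, of the factor that recruits RNA polymerase I to its promoter, fell by 0.33 ± 0.09 (limma adjusted p = 0.039); its sham animals ran from 6.06 to 6.62 and its IPC+IPO animals from 5.77 to 6.29. Myc stood at 0.99 ± 0.31 (adjusted p = 0.0559) and did not pass. In IPC+IPO against IPC 0 of the 104 and 0% of all genes passed. At an unadjusted p under 0.05 were 3 of the 104, against 1.62% of all genes. Myc at -0.65 ± 0.29 and the large subunit factor Nle1 at -0.19 ± 0.08 were among these 3. In IPO against IRI 40 were called higher and 1 lower, with a median of 0.344, beside 12.4% and 10.4% of all genes. With the covariate 0 of the 104 and 0.0138% of all genes were called, and the median of the 104 was 0.051. As deposited Myc differed by 0.09 ± 0.29. In IRI livers Myc ran from 5.59 to 7.27, with a median of 6.70, and in IPO livers from 6.17 to 8.10, with a median of 6.55.

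Markers of liver cells are given beside these groups as a description. Of all genes 6.58% were called in IPC against sham and 3.62% in IPC+IPO against sham. In IPO against IRI 12.4% were called higher and 10.4% lower. In IPC against sham the 10 Kupffer cell markers had a median difference of 0.486 with 1 called; their mean level ran from 7.03 to 8.32 in sham, from 7.61 to 8.34 in IPC and from 7.11 to 8.50 in IPC+IPO, where the median difference from sham was 0.398 with 1 called. The 10 hepatocyte markers had medians of 0.113 and 0.149 in the same comparisons, with 1 called higher in each. The 8 cycling cell markers had medians of 0.007 and -0.034, with 1 called in each, and their mean level lay between 4.55 and 5.39 in all 48 animals. These markers did not move alike. The group mean of Pcna was 6.79 in sham, 7.66 in IPC and 7.80 in IPC+IPO, and that of Aurkb 5.32, 5.17 and 5.11. In IPO against IRI the medians were 0.285 for Kupffer cell markers (2 of 10 called higher), 0.240 for 9 stellate cell markers (1 higher), 0.230 for 6 endothelial markers (1 lower), 0.193 for hepatocyte markers (2 higher, 1 lower) and -0.237 for 6 erythroid markers (1 lower). Neutrophil, cholangiocyte and lymphocyte markers had median levels of 5.05, 5.96 and 4.59 in IRI animals and 5.10, 6.15 and 4.48 in IPO animals. In sham, IPC and IPC+IPO animals the median levels were 6.71, 6.93 and 7.22 for erythroid markers and 6.87, 6.92 and 6.94 for stellate markers. They were 7.07, 7.04 and 7.11 for endothelial, 4.96, 5.02 and 5.05 for neutrophil, 5.91, 5.93 and 6.17 for cholangiocyte and 4.55, 4.57 and 4.54 for lymphocyte markers. Marker values with the spread covariate are not given here. The part of all these cells in the differences of the nucleolar genes was not tested.

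Several probe sets were present for 6 of the 53 genes, and these did not always agree. The 4 probe sets of Npm1 differed by 0.45 to 1.19 between IPO and IRI and by 0.08 to 0.52 between IPC and sham. Nop16, a large subunit factor, was at 0.45 in IPO against IRI by the probe set used and at -0.19 by the dimmer one, and Gnl3, the nucleostemin gene, at 0.39 and -0.07. Ebna1bp2 was at -0.08 in IPC against sham by the probe set used and at 0.25 by the other. In IRI against sham these stood at -0.29 and 0.04. The probe sets of Ddx21, a nucleolar helicase, both stood at 0.56 in IPO against IRI.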

How the data were processed

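Each probe set has 1 deposited value per array on the log2 scale, computed by the authors in Affymetrix Expression Console by RMA, per the submitters' processing notes; versions and filters are not given in the sources used here. RMA corrects background, normalizes probe quantiles across arrays and summarises probes, which compresses low signals. No batch or scan date was named, and precision is limited by how many arrays each group has. Of 29215 probe sets, 15310 carried 1 gene symbol in the platform annotation, 323 several and 13582 none; only the first were used, which gave 14506 genes with 1 probe set each, the one of highest mean. No arrays held identical values.

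The 5 groups, taken from the sample titles, were fitted together with limma 3.58.1 (lmFit and eBayes, R 4.3.3, 43 residual degrees of freedom), two-sided, with Benjamini-Hochberg adjustment over the 14506 genes and a threshold of 0.05; code was tested on simulated data. The members, the other ribosome biogenesis genes, the marker lists and the comparisons were chosen with earlier results of these data known. Tests bear on the members only in IPC against sham, IPC+IPO against sham and IPC+IPO against IPC, which use no IRI or IPO array in the difference.

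Genes were named by a rule: in those 3 comparisons the members past the threshold (at most 6) or, where under 3 passed, the 3 of smallest p; the 10 members of largest difference in IPO against IRI; the member of each role with the smallest p over the 5 groups; and among other ribosome biogenesis genes the 2 of smallest p in each of the 3 comparisons, and Myc. Further names complete a count of 9 or fewer, show a range or were picked once their values had been seen. Alternatives were array spread as a covariate, only the groups compared, a trended robust variance, the probe set of largest variance per gene, every probe set tested, no gene from the dimmest 33.3%, array weights, arrays centred on their medians, renewed quantile normalization, an adjusted p under 0.01, each array left out in turn and, chosen after seeing the data, leaving out the 14 arrays of lowest spread. Promoter sequences came from RefSeq (GRCr8). Plots used matplotlib 3.10.9 (Python 3.11.15).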

Additional observations from a re-analysis of the deposited data

Results flagged for a closer look

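Of 100 sets of group values tested with Dixon's ratio, 11 held an animal that stood far from the rest of its group, where about 1 in 20, or 5, would do so by chance. The sets share the same arrays, and their genes moved together within groups and were named partly by their values. The flags are therefore not independent, and 1 animal can give several. IPO animal 30 was far below the other IPO animals in Nop10 (9.7203 against a next value of 10.287), Npm1 (8.331 against 8.9801) and Rpf1 (6.8172 against 7.4706), and its array spread of 1.7493 was far below the next, 1.8597. IRI animal 7 was far below its group in Rpf1 (5.3683 against 6.3497) and Rpf2 (5.146 against 6.0105). IPC+IPO animal 38 was low in Dkc1 (6.7529 against 7.2786) and IPC+IPO animal 37 in Utp15 (4.5831 against 5.2877). IPC animal 11 was low in Rbm34 (5.2359 against 5.6917) and IPO animal 25 in Noc4l (6.3868 against 6.6796). Sham animal 43 was the only one far above its group, in Polr1b (6.2377 against 5.8448).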

How the results depend on the processing

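No paired analysis was possible because the animal numbers are unique and the groups share none. In IPC against sham the count of 2 called genes became 0 with the spread covariate, where 1.9% of all genes were called. It was also 0 at an adjusted p under 0.01 (0.979% of all genes) and without the 14 arrays of lowest spread (0.0483%). With a trended robust variance it was 1 (5.84%), as with all probe sets tested (4.46% of probe sets). Array weights gave 34, where 48.6% of all genes were called. Leaving out 1 array gave 0 to 15 in IPC against sham, the share of all genes in those fits not being given here. Its median of 0.234 became 0.00037 with the covariate and -0.116 without the 14 arrays, which leaves 2 sham arrays, and Ddx56 then turned to -0.130 in IPC against sham and -0.0185 in IPC+IPO against sham. In IPC+IPO against sham the count of 0 became 29 with array weights, where 62.1% of all genes were called. It became 3 without the dimmest 33.3% of genes, where 8.04% of the genes tested were called. Leaving out 1 array gave 0 to 11, the share of all genes again not being given. In IPO against IRI the 32 became 0 with the covariate (0.0138% of all genes) and 21 after renewed quantile normalization (8.89%). At an adjusted p under 0.01 there were 5 (0.283%). Without the 14 arrays there were 17 (7.42%), 16 of the 32 among them. Leaving out 1 array gave 14 to 38. In IRI against sham the count of 0 became 4 lower with the covariate, 5 higher with array weights and 2 lower after quantile normalization. All genes called in either direction were 5.89%, 13.1% and 2.63% in these fits. The count stayed 0 whichever array was left out. IPC+IPO against IPC gave 0 called genes under every alternative run, while its median of -0.069 turned to 0.032 without the 14 arrays. The cause of these changes was not tested.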
